A study of Mus musculus with 4 samples.

Results

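The regions described here were the stretches of methylated DNA that lay within the last 2 Mb, at the highest coordinates, of mouse chromosomes 1 to 19. Peaks called in the 4 libraries of the series were joined where they overlapped by 1 bp or more, and a joined region was kept when all of it fell in that window of the mm10 assembly. This left 2269 regions of 186169 in the series (1.22%), from 322 to 7773 bp wide with a median of 1120 bp, in 35.6 Mb of sequenced DNA. DNA came from hand-picked pancreatic islets of 8-week-old male mice and was enriched for methylated fragments by immunoprecipitation before sequencing (MeDIP-seq). The controls (WT, n = 2) were Raptor lox/lox mice. The knockouts (KO, n = 2) were Raptor lox/lox; RipCre mice, called βRapKO by the study, in which Cre under the rat insulin promoter deletes Raptor, a subunit of the mTORC1 kinase complex. All 4 libraries thus carried the floxed allele, and only the KO libraries carried Cre. The floxed line was on a C57BL/6J background and the Cre line on a mixed C57BL/6J and 129/SvJ background. Cre acts in insulin-expressing cells, whereas islets also hold other endocrine cells, vessels and immune cells, so a change in the mix of cells and a change of methylation within beta cells cannot be told apart. MeDIP-seq measures no transcripts, so the tissue label could not be checked against marker genes.

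Mouse autosomes have their centromere close to one tip, so that the low-coordinate end of the assembly is centromeric and the high-coordinate end is the telomere of the long arm. The telomere itself is an array of TTAGGG repeats, which contains no CpG, the dinucleotide at which most mammalian methylation is found. The DNA next to it, the subtelomere, mixes genes with repeats and duplicated sequence, and in somatic cells its repeats are usually methylated. MeDIP enrichment grows with the number of methylated CpG sites in a fragment, and a peak therefore reflects both methylation and CpG density.

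To show what such DNA looks like, 200-base stretches around the summit of 5 distal regions are given first, all from the plus strand of GRCm38 with CG in capitals. They show DNA of a strong, an outermost or a small-p region, as said for each. The chr6 stretch (chr6:147893900-147894099, 12 CpG sites) is from a repeat, the distal region with the most tags on its chromosome. The chr7 stretch (chr7:144410077-144410276, 12 sites) is from coding exon 22 of Shank2. The chr9 stretch (chr9:124257512-124257711) is from a strong peak and has 0 CpG sites. The chr10 stretch (chr10:130592494-130592693, 15 sites) is from the outermost region of its chromosome, over the processed pseudogene Ftl1-ps2. The chr13 stretch (chr13:119403605-119403804, 8 sites) is from the Nnt region with the smallest p among regions lower in KO.

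chr6 repeat: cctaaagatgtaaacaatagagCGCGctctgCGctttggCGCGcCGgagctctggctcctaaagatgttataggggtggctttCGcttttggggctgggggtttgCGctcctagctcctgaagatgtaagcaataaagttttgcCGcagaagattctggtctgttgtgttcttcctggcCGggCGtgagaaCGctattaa
chr7 Shank2: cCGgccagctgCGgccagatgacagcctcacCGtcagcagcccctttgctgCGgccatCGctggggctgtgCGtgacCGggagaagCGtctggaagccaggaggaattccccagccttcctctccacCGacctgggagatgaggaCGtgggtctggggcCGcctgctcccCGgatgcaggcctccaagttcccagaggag
chr9 CpG-free: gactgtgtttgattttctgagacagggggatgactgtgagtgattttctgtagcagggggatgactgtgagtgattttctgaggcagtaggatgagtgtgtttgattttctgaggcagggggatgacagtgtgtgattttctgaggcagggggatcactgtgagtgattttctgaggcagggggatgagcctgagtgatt
chr10 outermost: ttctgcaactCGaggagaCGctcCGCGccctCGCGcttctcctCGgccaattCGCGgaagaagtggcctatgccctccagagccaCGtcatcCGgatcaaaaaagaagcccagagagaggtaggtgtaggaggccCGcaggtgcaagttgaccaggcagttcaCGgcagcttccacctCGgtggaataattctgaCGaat
chr13 Nnt: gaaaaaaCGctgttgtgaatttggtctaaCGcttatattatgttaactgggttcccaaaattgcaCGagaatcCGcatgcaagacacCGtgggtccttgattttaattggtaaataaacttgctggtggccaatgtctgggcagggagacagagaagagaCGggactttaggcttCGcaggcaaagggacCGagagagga

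The deposited peak files held 25585533 to 31330751 tags per library after duplicate removal and 117638 to 151093 peaks. WT replicate 2 was the deepest library and had the most peaks. The share of all tags that lay in peaks ranged from 29.2% to 35.4%. Rptor, the gene deleted in KO, lies on chromosome 11 and ends 183 kb outside the window. Its most-tagged region held 9.69 and 9.86 tags per 1000000 tags of the library (CPM) in the WT and 7.70 and 9.43 CPM in the KO libraries, which says nothing of the deletion, since peaks over the gene do not measure exon loss.

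Merged regions were sparser in the distal 2 Mb than in the DNA just inside it. The distal windows held 63.7 regions per sequenced Mb, against 102 in the stretch from 2 to 4 Mb from the end, 76.7 in the first 2 Mb at the centromeric end and 75.2 in the rest of the chromosomes. The ratio was 0.624 to the adjacent stretch and 0.846 to the interior. The share of bases inside peaks was lower than in the interior in each library, with ratios from 0.860 to 0.888. The distal sequence was also poorer in CpG, with 0.789 sites per 100 bp against 1.05 in the adjacent stretch, and it held more genes, with 13.7 protein-coding genes per Mb against 10.7. Per 1000 CpG sites there were 8.07 distal regions, 9.74 in the adjacent stretch and 8.86 in the interior, so a smaller deficit remained after CpG content was counted.

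**Figure D1:**
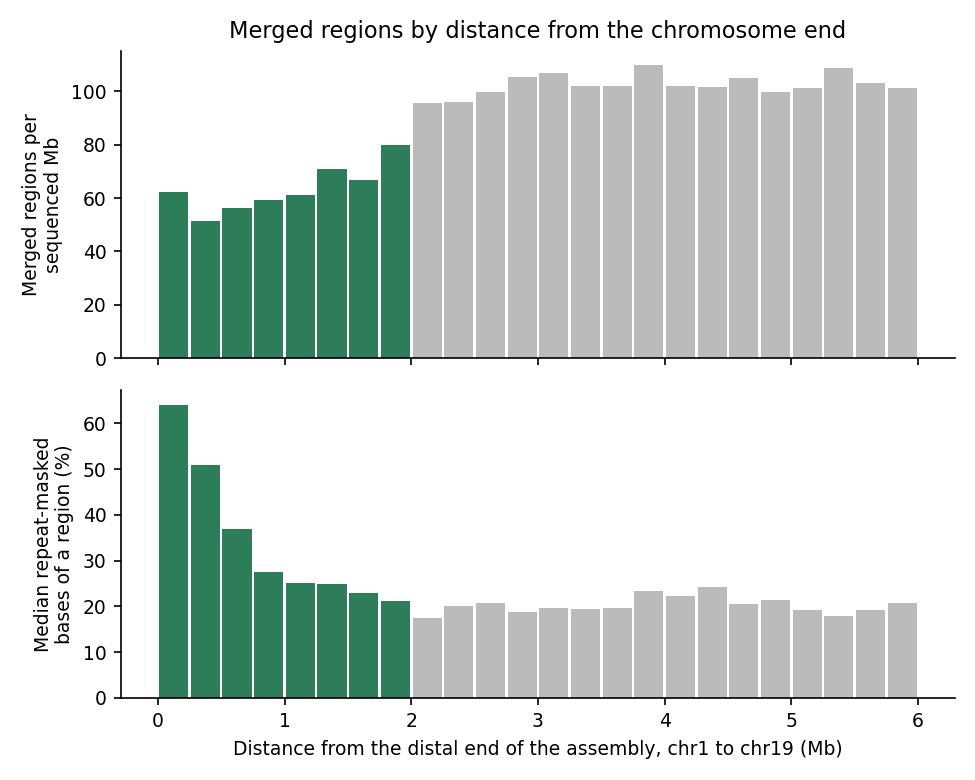
Upper panel, merged regions per sequenced Mb in bins of 0.25 Mb by distance from the distal end of chr1 to chr19 (green, the last 2 Mb; grey, further inside). Lower panel, the median share of repeat-masked bases in the regions of each bin. In the last 2 Mb the density is lower than further inside, from 51.5 to 80.0 regions per Mb, and the masked share is highest in the outermost bins.

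In bins of 0.5 Mb the density fell towards the end, and the sequence of the regions changed with it. There were 73.4 regions per Mb between 1.5 and 2 Mb from the end and 66.1 between 1 and 1.5 Mb. There were 57.8 between 0.5 and 1 Mb and 55.5 in the last 0.5 Mb. In bins of 0.25 Mb the fall was not steady: the density was 51.5 between 0.25 and 0.5 Mb and 62.4 in the last 0.25 Mb. The median share of repeat-masked bases of a region went the other way, from 21.4% through 25.1% and 31.3% to 58.3%. Regions in the last 0.5 Mb were also called in all 4 libraries more often, 50.6% against 40.2% in the bin furthest from the end. In all, distal regions had a median of 28.2% masked bases and 1.56 CpG sites per 100 bp, against 19.9% and 1.64 in the adjacent stretch. By position, 494 of the distal regions (21.8%) overlapped an exon of the principal transcript of a protein-coding gene, 570 (25.1%) lay in its introns, 81 (3.57%) lay within 2000 bp upstream of such a transcript and 935 (41.2%) lay outside these and other annotated genes, though some of them lie within the longer span of a gene. Over all autosomal regions these shares were 17.9%, 28.9%, 2.69% and 42.2%, and the remainder lay in other annotated genes.

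The chromosomes differed widely. The densest distal windows were those of chromosomes 4 (117 regions per Mb), 11 (108) and 5 (103), and the sparsest those of chromosomes 3 (26.8), 17 (27.9) and 18 (28.4). On 7 of 19 chromosomes the window was denser than the rest of the chromosome. Over the 19 windows, region density followed CpG density (Pearson r = 0.92, Spearman rho = 0.94) more closely than gene density (Pearson r = 0.56, Spearman rho = 0.70). These correlations describe windows of the same 4 libraries and share base composition.

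**Figure D2:**
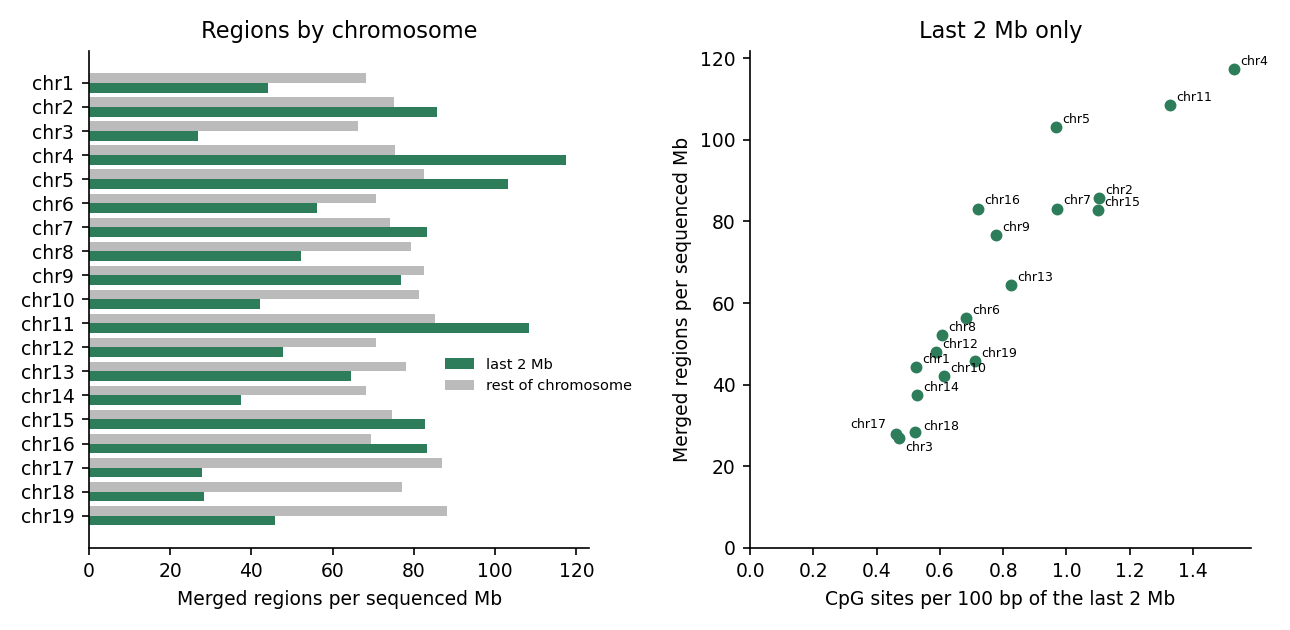
Left, merged regions per sequenced Mb in the last 2 Mb (green) and in the rest (grey) of each chromosome. Right, the same distal density against CpG sites per 100 bp of the window, 1 point per chromosome. Chromosomes 4, 11 and 5 stand highest in both panels, and chromosomes 3, 17 and 18 lowest.

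The assembly ended in TTAGGG on nearly all of these chromosomes, and methylated regions came close to it. The last 600 bp of sequence held TTAGGG on 18 of 19 chromosomes, and at least 20 copies on 14. The outermost region lay 1.58 kb (chr14), 1.84 kb (chr10) and 3.88 kb (chr16) from the last sequenced base on the chromosomes where it was nearest, and 100 kb from it on chr3, beside the start of Wls, a carrier protein for Wnt ligands. A pair of TTAGGG copies in tandem, searched on both strands, was found in 9 of the 2269 regions (0.397%), against 11 (0.285%) in the stretch from 2 to 4 Mb from the end and 0.124% of all autosomal regions. The outermost region of chr10, shown above, held 3.44 and 3.57 CPM in WT and 3.74 CPM in KO replicate 2, with no peak in KO replicate 1. The outermost region of chr1 (chr1:195364786-195365755) held 1.37 and 1.63 CPM in WT and 1.4 and 1.71 CPM in KO, and the groups overlapped. On chr14 (chr14:124800035-124800667) it was called in WT replicate 2 alone, at 2.78 CPM.

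The strongest distal regions were mostly repeats. In the distal region with the most tags on each chromosome, values ran from 8.73 to 50.1 CPM. Of these 19 regions, 16 had over 75% masked bases, and 7 lay in or at an annotated gene or pseudogene. By BLAST, 17 of the 19 aligned with another distal region over at least 500 bp at 90% identity or more, and 16 with one on another chromosome. Among all distal regions 338 (14.9%) did so with another distal region, with a median of 89.6% masked bases against 22.9% for the others, and 77.8% of them were called in all 4 libraries against 36.4%. Short reads from such copies can align to several of them, and how tags were shared among copies was not tested. Regions with no such copy include the Shank2 and Grk5 regions.

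The most-tagged distal region of all lay on chr13 (chr13:119487482-119493613), over the start sites of 3110070M22Rik and Tmem267. It held 50.1 and 46.8 CPM in WT and 44.5 and 48.0 CPM in KO. The groups overlapped there. The most-tagged distal region of chr19 was also the widest of all distal regions. It lay in intron 1 of Grk5, a kinase of G protein-coupled receptors (chr19:60926153-60933925). It held 38.5 and 39.0 CPM in WT and 34.4 CPM in KO replicate 1, but had no called peak in KO replicate 2, so the absence of a call cannot be read as absence of tags. The chr9 region (chr9:124255616-124258549) held 32.4 and 25.6 CPM in WT and 34.1 and 29.0 CPM in KO. It had only 0.388 CpG sites per 100 bp and none in the stretch printed above.

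The distal region richest in CpG among those called in all libraries, with 7.08 sites per 100 bp, lay over the start of Actg1, which encodes a cytoskeletal actin (chr11:120346913-120348579). It held 1.95 and 2.27 CPM in WT and 2.12 and 1.78 CPM in KO, and the groups overlapped.

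**Figure D3:**
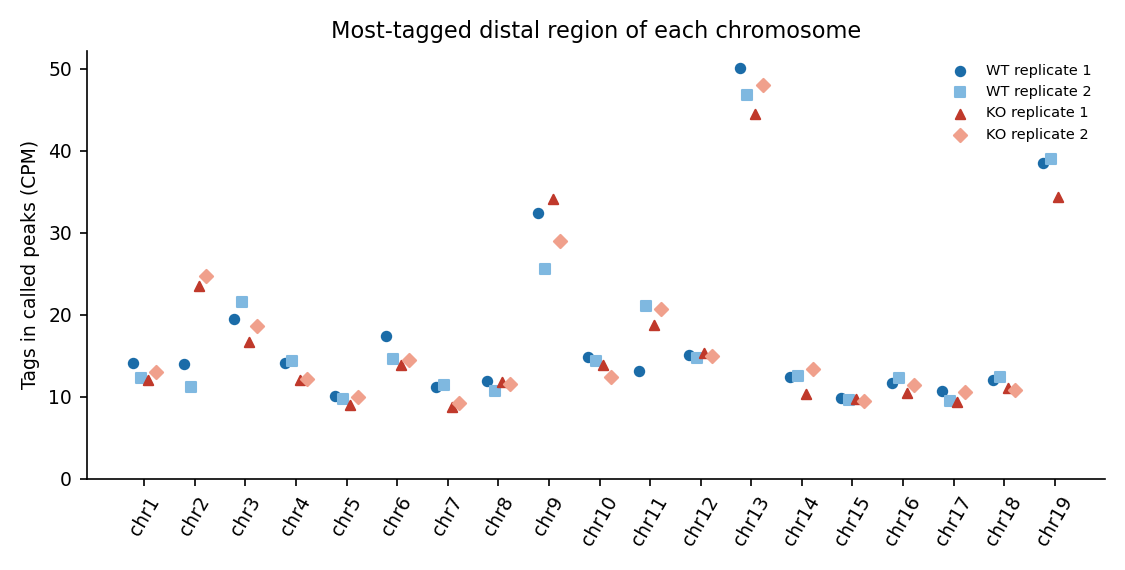
Tags in called peaks (CPM) of the most-tagged distal region of each chromosome in the 4 libraries, 1 point per library. KO lies above WT without overlap on chr2 only, and there is no point for KO replicate 2 on chr19.

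In the 18 most-tagged regions called in all 4 libraries, both KO values lay below both WT values in 7, above in 1 and overlapped in 10. Among all 75052 regions tested, 25.3% lay below and 11.6% above in this way. The exon 22 region of Shank2, a scaffold protein of excitatory synapses (chr7:144409055-144412241), was one of the 7. It held 11.1 and 11.4 CPM in WT and 8.73 and 9.19 CPM in KO, a log2 fold-change of -0.33 ± 0.11 (SE) with an adjusted p of 0.823 in edgeR's quasi-likelihood test.

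To ask which distal regions differed between WT and KO, regions were first sorted by the libraries that called them. Of the 2269 regions, 966 (42.6%) had a peak in all 4 libraries, against 40.3% of all regions in the series. In 104 (4.58%) the WT libraries both had a peak and the KO libraries had none, against 4.16% of all regions. The reverse held for 33 (1.45%), against 1.58%. These shares were close to the background. WT replicate 2, the deepest library, was the sole caller of 280 regions, against 119, 109 and 95 for WT replicate 1, KO replicate 1 and KO replicate 2. Of 211 distal regions on chromosome 4, 12 were called only in both WT libraries and 0 only in both KO libraries. Of 158 on chromosome 7, these were 16 and 3. Regions called only in WT outnumbered those called only in KO on 15 chromosomes, the reverse held on 2 (chromosomes 8 and 10), and the counts were equal on 2 (chromosomes 14 and 17). The whole series had the same excess, 7747 regions called only in WT against 2947 only in KO. The windows share the same 4 libraries, so they are not independent of one another.

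**Figure D4:**
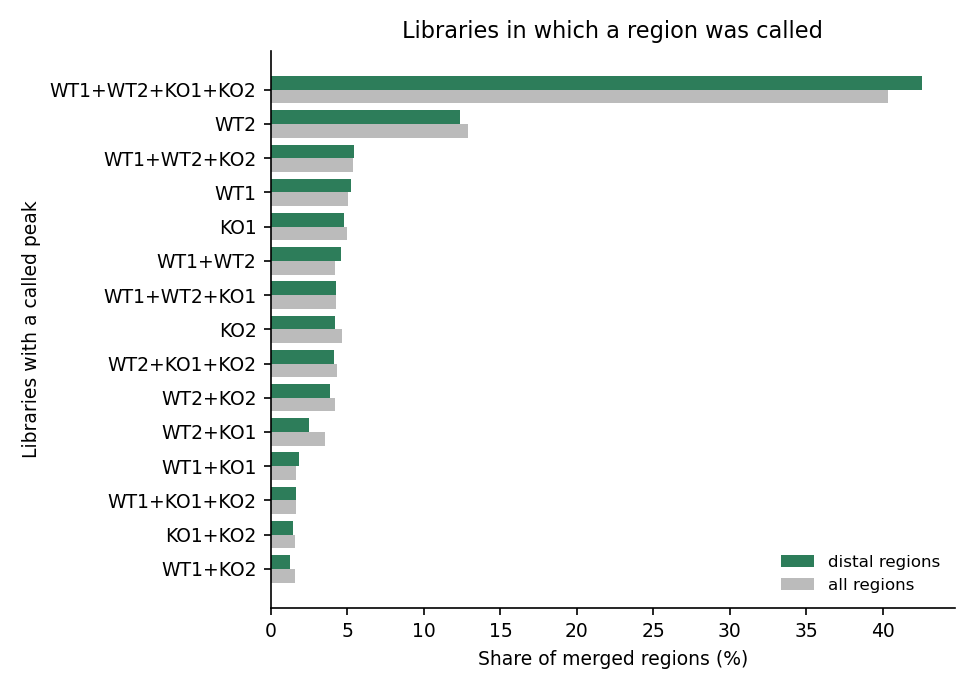
Share of merged regions (%) by the set of libraries with a called peak, for the 2269 distal regions (green) and all 186169 regions (grey). WT1, WT2, KO1 and KO2 are the replicates of each group. The paired bars are similar in length for each pattern.

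The 3 strongest WT-only regions all lay on chromosome 4. A region in intron 1 of Prdm16, a transcription factor known for its role in brown fat (chr4:154602083-154605814), held 6.61 and 6.35 CPM in WT. Another in the same intron (chr4:154588390-154590463) held 4.85 and 4.47 CPM. The third, across exons 8 and 9 of Pank4, a member of the pantothenate kinase family (chr4:154971786-154974304), held 5.12 and 5.97 CPM. The strongest KO-only regions held fewer tags, but they were the top of 33 regions, against 104 WT-only ones. Each set was ranked by the tags of its own group, so no difference between the groups is drawn from this. That in intron 18 of Ccdc57 (chr11:120853760-120856536) had 4.21 and 2.33 CPM in KO, that in intron 13 of Shank2 (chr7:144233453-144234900) had 1.88 and 2.09 CPM, and that within Fry (chr5:150135048-150136687) had 1.4 and 2.40 CPM.

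In the 966 distal regions with a peak in all 4 libraries, no difference between WT and KO passed a false discovery rate of 0.05. The test was edgeR's quasi-likelihood test over all 75052 such regions of the series, with Benjamini-Hochberg adjustment. The number of distal regions called was 0 in either direction (0.0% of all regions tested), and the smallest adjusted p was 0.358. DESeq2 and limma also called 0 distal regions. At an unadjusted p below 0.05, 55 regions (5.69%) were lower in KO and 14 (1.45%) higher, against 3.93% and 1.88% of all regions tested. This balance was not stable: with tags in peaks as library size 11 were lower and 41 higher, and the lower count was 27 without WT replicate 2 and 29 without KO replicate 1. At the same unadjusted threshold DESeq2 gave 6 lower and 6 higher, and limma 52 lower and 12 higher. By mean CPM, 19 regions (1.97%) were more than 1.5-fold lower in KO and 8 (0.828%) more than 1.5-fold higher, against 1.77% and 1.29%. Both KO libraries lay below both WT libraries in 267 regions (27.6%) and above in 103 (10.7%), against 25.3% and 11.6%. The median log2 fold-change was -0.07, against -0.06 over all regions, and 595 of 966 (61.6%) were below WT, against 60.8%. The direction of this small shift depended on the scaling: with library size set by tags in peaks the distal median was 0.10, and with TMM it was -0.0042. No direction is therefore drawn from it.

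Because tags were counted only inside each library's own peaks, tags and peak width are tied, and both are given here. Among the 55 regions lower at an unadjusted p below 0.05, the peak was narrower in both KO libraries than in both WT libraries in 23 (41.8%) and wider in 4, against 41.0% narrower among the regions of the whole series that passed the same threshold. Among the 14 that were higher, it was wider in both KO libraries in 11 (78.6%), against 89.95% in the whole series. Over all 966 distal regions tested, 86 (8.90%) were narrower and 300 (31.1%) wider in both KO libraries. Over all regions tested in the series these shares were 6.86% and 31.0%. Divided by peak length, the median log2 fold-change of the 14 was -0.25, while their median by tags was 0.57.

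**Figure D5:**
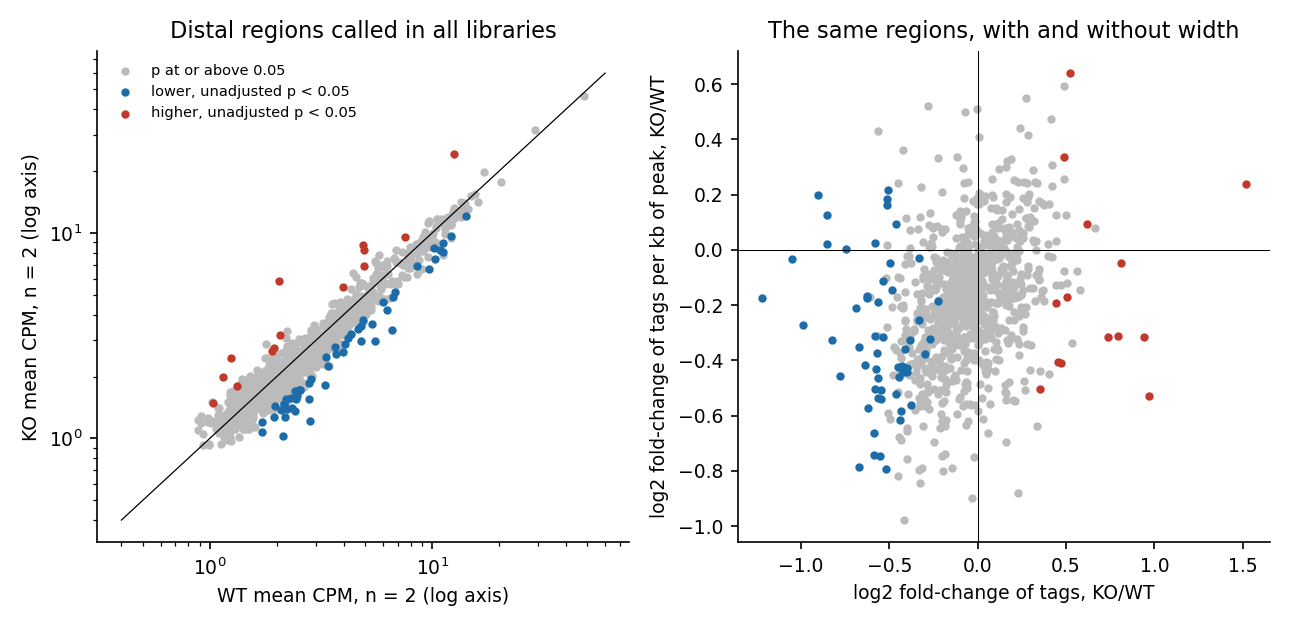
Left, mean CPM in WT and KO (n = 2 each, log axes) of the 966 distal regions called in all 4 libraries, with the line of equality. Right, the log2 fold-change of tags against that of tags per kb of peak in the same regions. Blue and red mark the 55 lower and 14 higher at an unadjusted p below 0.05, and 10 of the 14 red points lie below 0 on the right-hand vertical axis.

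The largest change by p was on chromosome 2, 45.2 kb from Polr3k, a subunit of RNA polymerase III (chr2:181916041-181922387). This region held 14.0 and 11.2 CPM in WT and 23.5 and 24.7 CPM in KO. The KO values were above the WT values without overlap, as in 10.7% of distal and 11.6% of all regions tested. The region was picked by p from the same tags, so this separation is no further evidence. The log2 fold-change was 0.94 ± 0.12 (SE, adjusted p = 0.358). The called peaks covered 2751 and 2169 bp in WT and 5467 and 6284 bp in KO, and per kb of peak the log2 fold-change was -0.32. The region had 78.9% masked bases and aligned by BLAST, as above, with 4 distal regions on other chromosomes.

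On chromosome 5 a region over the pheromone-receptor pseudogene Vmn2r-ps26 (chr5:151524247-151527154) held 2.27 and 1.82 CPM in WT and 6.43 and 5.21 CPM in KO. The groups did not overlap, again in a region picked by p from the same tags. The log2 fold-change was 1.52 ± 0.20, with an adjusted p of 0.358. The peak covered 1188 and 996 bp in WT and 2592 and 2706 bp in KO, and the value per kb was 0.24. It had 98.5% masked bases. The third, 2.50 kb from Pcp4, which encodes a calmodulin-binding peptide (chr16:96528290-96530174), held 1.21 and 1.28 CPM in WT and 2.40 and 2.50 CPM in KO. Its log2 fold-change was 0.97 ± 0.19 by tags and -0.53 per kb of peak.

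Of the 3 regions with the smallest p among those lower in KO, the first lay over exon 2 of Nnt, the mitochondrial nicotinamide nucleotide transhydrogenase (chr13:119403348-119405241). Nnt is known to carry a deletion in C57BL/6J mice, and the Nnt genotype of these animals was not tested. The region held 2.70 and 2.97 CPM in WT and 1.23 and 1.20 CPM in KO, a log2 fold-change of -1.22 ± 0.20 with an adjusted p of 0.358. The peak covered 1894 and 1854 bp in WT and 912 and 897 bp in KO, and per kb the log2 fold-change was -0.17. The other 3 Nnt regions called in all libraries, over exon 17, exon 12 and intron 2, had log2 fold-changes of 0.10, 0.12 and -0.15.

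The second, 33.5 kb from Bahcc1 (chr11:120196548-120199445), held 5.67 and 5.43 CPM in WT and 2.81 and 3.12 CPM in KO. By tags its log2 fold-change was -0.90 ± 0.16, and per kb it was 0.20. The third, 7.17 kb from Ccr3, the eotaxin receptor (chr9:124038857-124040236), held 2.23 and 2.04 CPM in WT and 1.13 and 0.925 CPM in KO. It was -1.05 ± 0.20 by tags and -0.03 per kb. In all 3 the groups did not overlap by tags, with KO below WT as in 27.6% of distal and 25.3% of all regions tested. These regions were picked by p from the same tags, so the separation is no further evidence.

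As one value per library, tags per kb of peak (CPM per kb) over all distal regions were 2.33 and 2.33 in WT and 2.12 and 2.12 in KO, a log2 ratio of -0.13, against -0.14 in the interior of the chromosomes. The groups did not overlap, but an exact two-sided permutation test of 2 against 2 libraries gave p = 0.33, the smallest it can give. The share of all peak tags that lay in distal regions was 1.36% and 1.32% in WT and 1.33% and 1.33% in KO, and the groups overlapped (log2 ratio -0.01, exact permutation p = 1).

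Gene lists in these windows differed in how often their members carried a region. Of 493 protein-coding genes, 340 had at least 1 region in the gene or within 2000 bp upstream of it, 1238 regions in all. No region of any list passed the false discovery rate. The distal end of chromosome 15 holds the Hoxc cluster, homeobox genes that pattern the body axis, and 0 of its 9 genes had a region. Of 60 olfactory receptor genes, 10 had one.

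The imprinted Kcnq1 domain of chromosome 7 holds some genes that are expressed from 1 parental copy, which was not tested here. In it, 7 listed genes lay in the window and 6 had a region. Of the 6 regions called in all libraries, 4 were below and 2 above WT, with a median log2 fold-change of -0.24 against -0.07 over all distal regions tested. The 4 below lay at Cdkn1c, Phlda2, Cars and Osbpl5, and the 2 above at Osbpl5 and Dhcr7. The region upstream of Cdkn1c, a cyclin-dependent kinase inhibitor (chr7:143462534-143464149), held 3.28 and 3.35 CPM in WT and 3.01 and 2.64 CPM in KO. That in intron 1 of Cars, a cysteinyl-tRNA synthetase (chr7:143595318-143597722), held 4.81 and 5.94 CPM in WT and 2.91 and 4.32 CPM in KO. That across exons 16 to 19 of Osbpl5, an oxysterol-binding protein relative (chr7:143693655-143695497), held 4.89 and 4.66 CPM in WT and 3.35 and 3.70 CPM in KO. In these 3, all taken from the 4 below WT, both KO values lay below both WT values, as in 25.3% of all regions tested. The adjusted p at these Cars and Osbpl5 regions was 0.855 and 0.849.

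Ion channel genes and their partners carried the most regions of the listed groups, 88 over 6 genes, of which 44 were in Shank2. Counts in this and the other lists were not divided by gene length, and long genes have more room for regions. Shank2 spans chr7:144001928-144424494, and the chr7 window as a whole held 83.2 regions per Mb. Of 29 called in all libraries, 17 were below and 12 above WT. Within Shank2 the direction varied: 7 were below and 7 above. A region in intron 16 (chr7:144349329-144352156) held 4.22 and 5.65 CPM in WT and 8.76 and 7.78 CPM in KO, with peaks of 1194 and 1502 bp in WT and 2801 and 2828 bp in KO. Its log2 fold-change was 0.74 by tags and -0.32 per kb of peak. One in intron 10 (chr7:144128577-144129766) held 2.50 and 2.33 CPM in WT and 1.68 and 1.71 CPM in KO, with a log2 fold-change of -0.51 by tags and 0.22 per kb.

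All 5 fibroblast growth factor genes had a region, 22 in all. Of these, 18 were in Fgf14, which spans chr14:123977907-124677127, where the window as a whole held 37.4 regions per Mb. Of the 9 called in all libraries, all in Fgf14, 7 were below and 2 above WT. One within the gene (chr14:124333440-124335009) held 4.30 and 4.09 CPM in WT and 2.94 and 3.22 CPM in KO (adjusted p = 0.849). Of 9 developmental transcription factor genes in the windows, 5 had a region, and Sox18, Neurod4, Sp8 and Emx2 had none. Ski, a repressor of TGF-beta signalling, had 9, of which 4 were below and 1 above WT among the 5 called in all libraries.

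Metabolic and islet genes showed no common direction. All 7 had a region, 24 in all, and among the 9 shared by all libraries 4 were below WT and 5 above it. At Pycr1, an enzyme of proline synthesis, the region over exons 3 to 6 (chr11:120640960-120642432), held 2.38 and 3.32 CPM in WT and 2.12 and 1.75 CPM in KO (adjusted p = 0.858). Genes of the cell cycle and genome upkeep, among them Brca2 and Ccnd1, had 20 regions over 5 genes, and of 5 called in all libraries 3 were below and 2 above WT. Immune genes had 7 regions over 5 of 7 genes, with 1 below and 2 above WT of 3 called in all libraries, and zinc finger genes had 12 over 7 of 8, with 4 below and 1 above of 5. The last protein-coding gene before the end carried a region on 8 of 19 chromosomes.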

How the data were processed

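Islet DNA was immunoprecipitated for 5-methylcytosine and sequenced from 2 WT and 2 KO mouse samples. Per the labels and file headers, the authors aligned reads to mm10 with Bowtie2 2.2.5 and called peaks for each library with MACS (version 1.4.2 in the headers, 0.14.2 in the submitters' processing notes), with no input library, a p cutoff of 1e-05, a local background of 10000 bp and 1 tag per position. The deposited values used were tag counts per peak, the peak score (10 times −log10 of p) and the fold enrichment ratio.

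Peaks were joined at 1 bp of overlap, and tags were summed per region and library. CPM is tags per 1000000 tags kept after duplicate removal. Because tags are counted only inside each library's own peaks, the count depends on peak width, so values per kb of peak are also given. Those called in every one of the 4 libraries entered edgeR 4.0.16 (quasi-likelihood, no replicate block, no added normalization). The SE given with a log2 fold-change is its absolute size divided by the square root of edgeR's F statistic, so it restates the test. DESeq2 1.42.0 and limma 3.58.1 were alternatives. In counts simulated from these libraries edgeR found 96 of 200 regions changed by 2-fold, over the 75052 tested regions, and called 3 unchanged ones. Similar regions were sought with BLAST 2.17.0. Genes came from GENCODE M21 and sequence from GRCm38.

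Named regions were the most-tagged and the outermost of each chromosome, the 3 smallest p in each direction, the 3 with the most tags of each group-only set, those highest and lowest in CpG, the widest, and regions of the gene lists. Some of these are not reported here. Members and lists were chosen with earlier results of these data known. Nothing in the labels says whether replicates were separate pools of animals, so p-values measure only the spread between these samples. Intervals were not computed, and read depth limits precision at low CPM, where 1 CPM is 25.6 to 31.3 tags.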

Additional observations from a re-analysis of the deposited data

How the results depend on the processing

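No distal region passed a false discovery rate of 0.05 under any test setting run. With peaks scored at 100 or more, the counts were 1216 regions, 34.1 per Mb, 475 called in all libraries and 15 KO-only. Windows of 1 Mb and 3 Mb held 943 and 4151 regions, 438 and 1691 of them called in all libraries, 35 and 182 WT-only and 11 and 63 KO-only. They gave 17 and 95 lower and, at 1 Mb, 9 higher at an unadjusted p below 0.05, with 5 and 37 more than 1.5-fold lower and 5 and 14 higher. At 2-fold these were 2 and 1.

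Scaling decided the balance of lower and higher. With tags in peaks as library size, 11 were lower and 41 higher, the median log2 fold-change was 0.10, 32.8% lay below WT, and 8 and 26 passed 1.5-fold. With TMM these were 36 and 24, -0.0042, 50.9%, and 12 lower. With DESeq2 they were 6 and 6, -0.0055, 51.4%, and 12 lower. Per kb of peak they were 144 and 7, -0.17, 80.5%, and 44 and 1. Over all regions tested, the median per kb was also -0.17 and 79.8% lay below WT, so the distal values were close to the background. With at least 50 tags in every library, 34 were lower, 67.2% lay below WT, and 6 and 5 passed 1.5-fold. The replicate block gave 54 lower and 15 higher. Over the tested regions, deviations of WT replicate 1 and KO replicate 1 from their group means correlated at 0.047. This value cannot show whether same-numbered samples were prepared together.

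Leaving out 1 library at a time gave 201 to 390 WT-only and 71 to 144 KO-only regions, since fewer libraries then had to match. It gave 27 to 59 lower (27 without WT replicate 2, 29 without KO replicate 1), 12 to 24 higher (24 without KO replicate 1), medians from -0.117 to -0.0287, shares below WT from 55.2% to 65.6%, and 33 to 65 and 13 to 26 past 1.5-fold. The log2 ratio of the distal share of peak tags ranged from -0.0272 to 0.0140 (0.0140 without WT replicate 1), and was 0.0283 with the stricter score and 0.0483 in the 1 Mb window. Per kb of peak, 5 named regions turned direction: 0.20 near Bahcc1, -0.32 near Polr3k, -0.53 near Pcp4, 0.22 in intron 10 of Shank2 and -0.32 in its intron 16. The cause of these changes was not tested. With 2 libraries a group, power is limited: of 200 simulated 2-fold changes over all tested regions, 96 were recovered. The simulation drew counts without calling peaks, so the effect of counting tags only inside called peaks was not tested.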
